A study of Homo sapiens with 5 samples.

Results

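The genes described here encode 57 factors that assemble ribosomes in the nucleolus, given as a list of gene symbols. Presence in each of the 3 deposited tables of RNA sequencing of HLF cells was a condition for being on this list. The first table, on USP28-Ctrl and USP28-KO cells, held 11102 genes, and the tables for the reconstituted cells held 12342 genes each. The members were put into 4 classes by their known role, namely 8 factors of small nucleolar ribonucleoproteins (snoRNPs), 21 factors of the small ribosomal subunit, 21 factors of the large subunit and 7 other nucleolar proteins.

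HLF is an established hepatocellular carcinoma cell line, and USP28 is a deubiquitinase that acts on the transcription factor MYC. The 5 conditions were cells with a control guide RNA (sgCtrl, USP28-Ctrl), cells with a guide RNA against USP28 (sgUsp28, USP28-KO), and USP28-KO cells with the vector pRRL-Ctrl, pRRL-Usp28-WT or pRRL-Usp28-Mono. The last of these carries USP28 that cannot form dimers (USP28-M). The knockout cells were picked as single clones after CRISPR, and the alleles were delivered by lentivirus and antibiotic selection. No drug treatment was given, and the series lists 1 sample for each condition.

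Only the average expression of a gene over all libraries of a fit was used. It is the authors' average in log2 CPM, where CPM is the read count of a gene scaled to a common library size, and it has no standard deviation. The average of the first table is taken to be over USP28-Ctrl and USP28-KO together, the conditions it compares, and is named the knockout fit. Both tables of the reconstituted cells carry the same average for every gene, taken to be over vector, USP28-WT and USP28-M together. This average is named the re-expression fit and was counted once. These averages give how strongly each gene was expressed in HLF cells. They do not give a change with USP28, since each of them pools the conditions, and no replicate spread or test is available. Estimated from the steps of the lowest values, the knockout fit rested on about 7690000 reads and the re-expression fit on about 30460000, the latter with fewer values at whole reads and so less certain. A member was thus backed by between 62 and 17178 reads in the knockout fit and by between 152 and 49285 in the re-expression fit. The 95% Poisson interval of a level, which covers counting error only, had a median half-width of 0.095 on the log2 scale in the knockout fit and of 0.057 in the re-expression fit.

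The labelled origin was set beside marker genes. Of the hepatocyte markers, FGB (fibrinogen beta chain) was listed in all tables and SERPINA1 in the re-expression tables, while ALB, APOA1, APOB, TTR, TF, AFP and HNF4A were in none. All 5 mesenchymal markers were in both, VIM with an average log2 CPM of 11.71 and 11.69 in the knockout and the re-expression fit. Of 5 epithelial markers KRT8 and KRT18 were listed and EPCAM and CDH1 were not. None of 3 endothelial markers was listed, and of 3 leukocyte markers CD68 was listed and PTPRC and CD3E were not. Of 4 fibroblast markers, COL1A1 and LUM were listed in the knockout table and COL1A1 alone in the re-expression tables.

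Ribosome assembly starts in the nucleolus, where RNA polymerase I makes a long precursor of ribosomal RNA. The small-subunit processome forms on this precursor together with the U3 snoRNP, snoRNPs guide methylation and pseudouridylation of the RNA, and separate sets of factors then mature the small and the large subunit. Many of these genes are known targets of MYC, which binds the E-box sequence CACGTG with its partner MAX. A promoter is given here as 250 bases before to 50 bases after the transcription start that RefSeq annotates (GRCh38.p14), and 48 members matched such an entry by NCBI gene ID. The promoters of NOP58, NOLC1, RRP12, DDX52, BOP1, RRP1B, RRS1, DDX18 and TCOF1 were not analysed.

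An E-box with the letters CACGTG, which reads the same on both strands, was found in the promoters of 23 of 48 members (47.9%, 95% Wilson interval 34.5% to 61.7%). Of all 8897 genes of the knockout table with a promoter entry, members included, 1157 (13.0%) held one. By class the counts were 3 of 6 snoRNP factors, 9 of 19 small-subunit factors, 8 of 17 large-subunit factors and 3 of 6 other nucleolar proteins. Most of the difference lay just after the start. In the 50 bases from the start on, 17 of 48 members (35.4%, 95% Wilson interval 23.4% to 49.6%) had an E-box, against 156 of 8897 genes (1.75%). In the 250 bases before the start the numbers were 9 of 48 members (18.8%) and 1040 of 8897 genes (11.7%). The 17 downstream E-boxes began between 4 and 43 bases from the start, counting the start as base 1. The list had been put together as genes of the MYC programme, so the share of its promoters with a MYC motif is not independent of how it was chosen. These counts describe letters in annotated windows, and binding of MYC was not measured in these data.

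The E-boxes of 16 members are shown as examples and were picked from those near the start. Others as near, such as those of MYBBP1A (base 28) and NAT10 (base -15), are not shown. Most members had no E-box from the start on. Each line gives the gene, the GRCh38.p14 position and strand, the first base of the E-box counted from the annotated start, and 26 bases read 5′ to 3′ on the strand of the gene, with the E-box in capitals.
FBL (chr19:39846358-39846383, minus strand, base 7): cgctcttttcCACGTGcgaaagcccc
GAR1 (chr4:109815783-109815808, plus strand, base 32): gccagaggggCACGTGgcgccggtga
RRP9 (chr3:51941894-51941919, minus strand, base -5): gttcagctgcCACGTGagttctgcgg
NOP14 (chr4:2963376-2963401, minus strand, base 16): cgcggcccggCACGTGtcttagggta
WDR43 (chr2:28894660-28894685, plus strand, base 4): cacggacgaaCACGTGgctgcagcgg
UTP18 (chr17:51260540-51260565, plus strand, base 5): agcgaggttcCACGTGagcgcctgcg
UTP20 (chr12:101280085-101280110, plus strand, base -10): tttttccgtcCACGTGacccactcag
BYSL (chr6:41921517-41921542, plus strand, base 29): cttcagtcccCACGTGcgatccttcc
PNO1 (chr2:68157887-68157912, plus strand, base 10): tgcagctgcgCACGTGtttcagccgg
LTV1 (chr6:143843356-143843381, plus strand, base 29): cctggggctgCACGTGtggtgaggcc
IMP4 (chr2:130342902-130342927, plus strand, base 16): ctcccggaccCACGTGgaagcggcac
GNL2 (chr1:37595919-37595944, minus strand, base 4): acgtcgtgcaCACGTGgtccggcgtg
GNL3 (chr3:52686028-52686053, plus strand, base 7): cttcagttcaCACGTGgcgccagcgg
PES1 (chr22:30591882-30591907, minus strand, base 14): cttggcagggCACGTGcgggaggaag
MRTO4 (chr1:19251809-19251834, plus strand, base 15): tcttccgccgCACGTGgattcagcgc
NOC3L (chr10:94362905-94362930, minus strand, base 20): gggacttcggCACGTGtgtcattccc

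Of the other members with an E-box, NOP2, MYBBP1A and EBNA1BP2 had one after the start, and EBNA1BP2 a further one at base -237 of another annotated start. NAT10 had an E-box at base -15, DDX21 at -31, LYAR at -64 and SURF6 at -224. UTP18 and IMP4 had another E-box before the start in addition to the one shown. The levels of members with and without an E-box were compared per length. The median level per kilobase of transcript in the knockout fit was 5.40 on the log2 CPM scale for the 23 members with one and 5.02 for the 25 without, and in the re-expression fit these medians were 5.01 and 4.75.

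**Figure D1:**
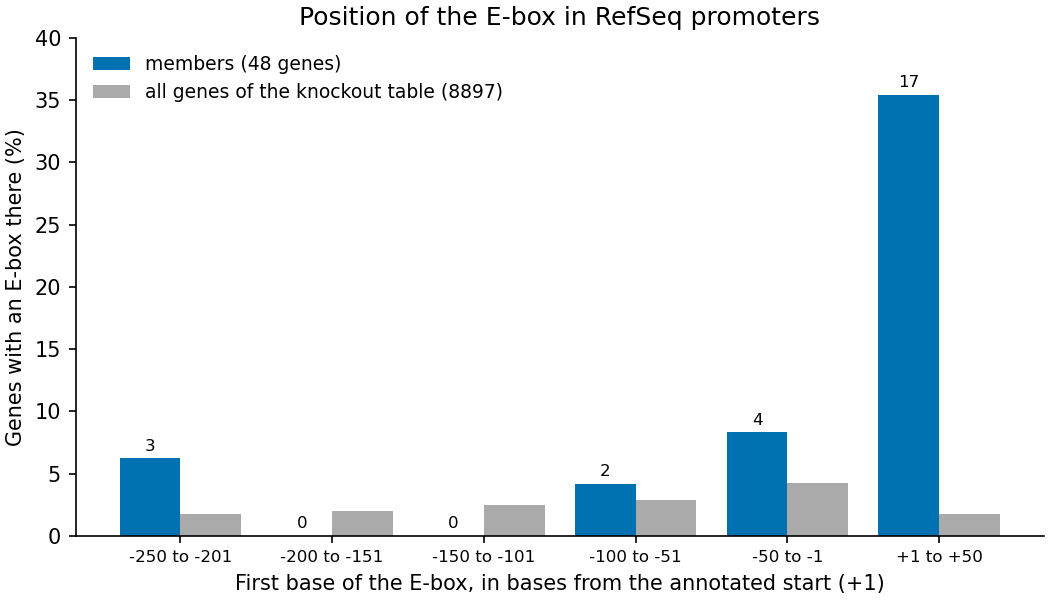
Percentage of genes whose RefSeq promoter has an E-box that begins in each stretch of 50 bases before the annotated start, or in the 50 bases from it on (base +1), for the 48 members with a promoter entry (blue, number of genes above the bar) and all 8897 genes of the knockout table with one (grey). In the last stretch 17 members (35.4%) and 1.75% of all genes had an E-box, and in each stretch before the start at most 4 members did.

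Levels of different genes were compared per kilobase (kb) of transcript, as the average log2 CPM minus the log2 of the transcript length in kb. On this scale the median member stood at 5.37 in the knockout fit and at 4.98 in the re-expression fit. The median over all genes of the table was 3.67 and 3.27. Of the 57 members, 49 lay above this median of all genes in the knockout fit and 49 in the re-expression fit. The CPM of the members, summed from these averages, came to 1.13% of the common library size in the knockout fit and 0.891% in the re-expression fit. These are not exact shares of reads, since the same sum over all shared genes came to 101.1% and 99.9%. NPM1 and NCL alone made up 37.8% and 34.2% of the members' sum.

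The 3 main classes followed the order snoRNP, large subunit, small subunit in both fits. Median levels per kb in the knockout fit were 6.58 for snoRNP factors, 5.54 for large-subunit factors and 4.86 for small-subunit factors. In the re-expression fit they were 6.17, 4.90 and 4.56. The gap between snoRNP and small-subunit factors thus was 1.72 on the log2 scale (3.29-fold) in the knockout fit and 1.61 (3.06-fold) in the re-expression fit. Between large- and small-subunit factors it was 0.68 (1.60-fold) and 0.34 (1.26-fold), and per kb of coding sequence 0.88 and 0.85. The ranges of the classes overlapped. The highest small-subunit factor, NOB1, had 5.50 in the knockout fit, and 6 of 8 snoRNP factors and 11 of 21 large-subunit factors stood above it. In the re-expression fit NOB1 was again the highest with 5.74, and 5 snoRNP and 6 large-subunit factors stood above it. Genes are not replicates, so the order of the classes is a description without a test. The median GC content of the transcripts was 51.9% for snoRNP, 53.3% for large-subunit and 44.7% for small-subunit factors. Its part in the class levels was not tested.

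**Figure D2:**
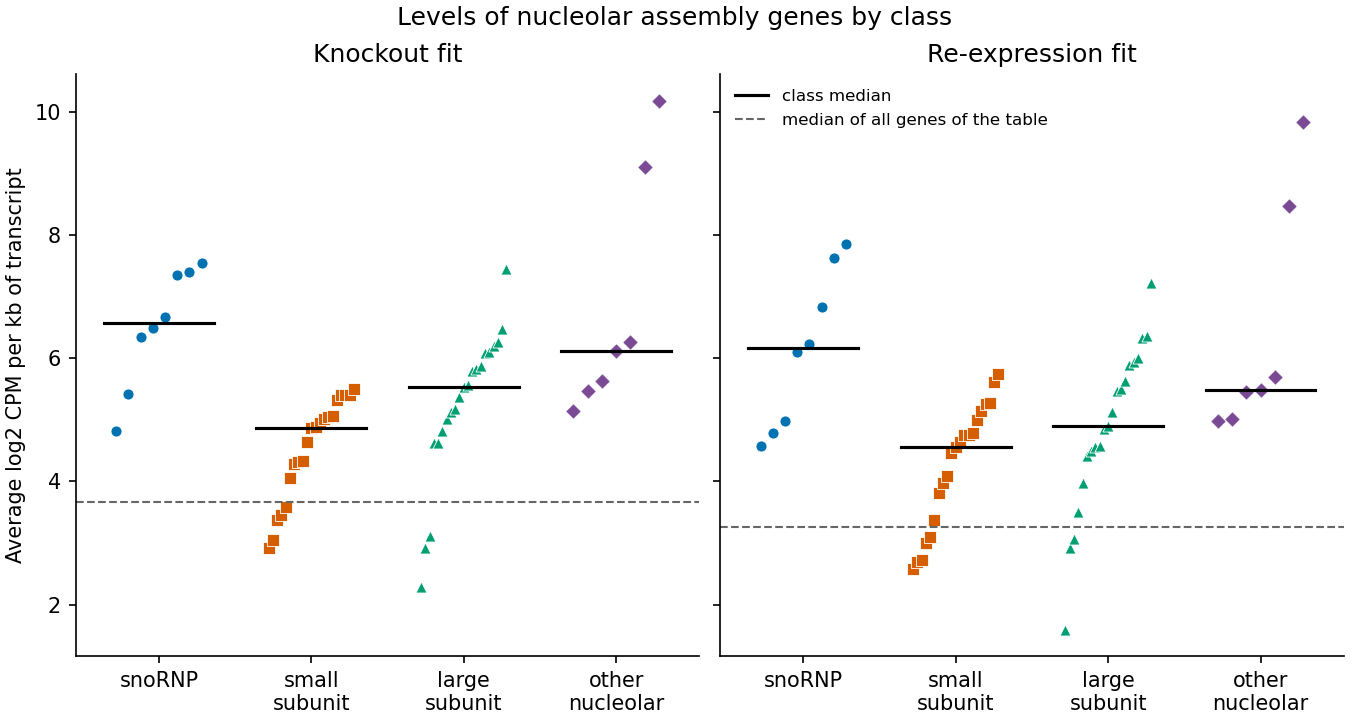
Average log2 CPM per kb of transcript of each of the 57 members (points, ranked within the class) in the knockout fit (left) and the re-expression fit (right), with class medians as black bars and the median of all genes of the table as a dashed line. The snoRNP median (6.58 and 6.17) lies above that of the large subunit (5.54 and 4.90) and of the small subunit (4.86 and 4.56), and NPM1 and NCL are the highest points.

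SnoRNP factors were expressed at high and unequal levels. The box C/D particle methylates ribosomal RNA. Its methyltransferase fibrillarin, FBL, had a level per kb of 7.55 in the knockout fit and 7.86 in the re-expression fit. Its scaffold proteins NOP56 and NOP58 had 7.41 and 6.67 in the knockout fit, but 6.83 and 4.98 in the re-expression fit. SNU13, the RNA-binding core protein of this particle, which is not a member, had 6.60 and 6.43. The levels of the 4 core genes per kb of transcript thus spanned 0.95 on the log2 scale in the knockout fit and 2.88 in the re-expression fit. Per kb of coding sequence they spanned 1.54 and 3.05. On that scale SNU13 was the highest of the 4, with 8.57 in the knockout fit and 8.40 in the re-expression fit.

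The box H/ACA particle makes pseudouridine. Its catalytic subunit dyskerin, DKC1, had a level per kb of 6.35 in the knockout fit and 6.11 in the re-expression fit. NHP2 had 7.35 and 7.63 and GAR1 5.42 and 4.79, and NOP10, a core protein outside the list, had 6.58 and 7.05. GAR1 was the lowest of the 4 in both fits. NOLC1, a chaperone of snoRNPs, had 6.49 and 6.24. RRP9, a protein of the U3 snoRNP, was the lowest of its class with 4.82 and 4.57. Even so, all 8 snoRNP factors lay above the median of all genes in both fits.

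Small-subunit factors had the lowest median of the 3 classes. At its upper end in the knockout fit, NOB1, the endonuclease that forms the end of 18S rRNA, had a level per kb of 5.50 in the knockout fit and 5.74 in the re-expression fit. LTV1, an export and late assembly factor, had 5.40 and 4.09, and UTP18, a processome subunit, 5.40 and 5.25. At the lower end were WDR3 with 2.91 and 2.72, WDR36 with 3.06 and 2.69 and UTP15 with 3.37 and 2.57. The annotated transcripts of WDR3 (9974 bases) and WDR36 (7048 bases) are long relative to their coding sequences (2829 and 2853 bases). Per kb of coding sequence, WDR3 had 4.73 and WDR36 4.36 in the knockout fit. UTP20, a large scaffold protein of the processome, was then the lowest of the class with 3.70.

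Processome subcomplexes were uneven as well. In UTP-A, which binds the earliest part of the precursor, WDR43 had a level per kb of 5.33, HEATR1 of 4.34 and UTP15 of 3.37 in the knockout fit. In UTP-B, UTP18 had 5.40, against 3.06 for WDR36 and 2.91 for WDR3. Per kb of coding sequence the 6 UTP-B genes, with TBL3, PWP2 and UTP6 from outside the list, spanned 1.23 on the log2 scale in the knockout fit and 1.44 in the re-expression fit. The 5 UTP-A genes, with UTP4 and NOL11, spanned 1.71 and 2.24. IMP3 and IMP4, which bind the U3 RNA with MPHOSPH10, had 4.28 and 5.05 per kb of transcript in the knockout fit and 4.75 and 5.27 in the re-expression fit. MPHOSPH10 itself had 4.75 and 2.83. Per kb of coding sequence the order of IMP3 and IMP4 was reversed, with 6.16 and 6.04 in the knockout fit and 6.63 and 6.27 in the re-expression fit. On that scale MPHOSPH10 had 5.04 and 3.11. Per kb of transcript, NOP14 and its partner NOC4L had 5.06 and 4.64 in the knockout fit and 5.62 and 4.46 in the re-expression fit.

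Other factors of the small subunit lay between these ends. NAT10, which acetylates 18S rRNA, had a level per kb of 4.88 in the knockout fit and 5.00 in the re-expression fit. RRP12, a nuclear export factor, had 4.86 and 4.56, and the helicases DDX10 and DDX52 had 4.31 and 3.46 in the knockout fit and 3.81 and 3.10 in the re-expression fit. Of the factors of late maturation, BYSL had 5.40 and 5.15, PNO1 5.01 and 4.64 and TSR1 4.96 and 4.79. The kinase RIOK1, with 4.06 and 3.37, was the lowest of these late factors in both fits.

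Large-subunit factors spanned the widest range of the 3 classes, from 2.28 to 7.45 per kb of transcript in the knockout fit. The highest in the knockout fit were EBNA1BP2, an early assembly factor, with 7.45 in this fit and 7.22 in the re-expression fit, NOC2L with 6.48 and 6.36, and the helicase DDX56 with 6.27 and 5.94. The lowest were SURF6 with 3.11 and 3.06, WDR12 with 2.91 and 2.92 and PPAN with 2.28 and 1.59. PPAN was the member with the fewest reads, about 62 in the knockout fit and 152 in the re-expression fit. PPAN shares its exons with the read-through gene PPAN-P2RY11, which was in none of the tables, so its level is uncertain. Without PPAN the class kept the widest range per kb of transcript in the knockout fit, but not per kb of coding sequence. On the coding scale it then ran from 5.14 to 7.98. The small subunit ran from 3.70 to 6.61 on this scale and the snoRNP factors from 4.97 to 8.27, both wider.

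The PeBoW complex matures the large-subunit RNA and joins PES1, BOP1 and WDR12. PES1 had a level per kb of 6.20 in the knockout fit and 6.33 in the re-expression fit, and BOP1 5.80 and 5.64. WDR12 was lower, but its annotated transcript of 8100 bases holds only 1269 bases of coding sequence. Per kb of coding sequence the 3 genes had 6.58, 5.84 and 5.59 in the knockout fit, a range of 0.99 in place of 3.29. NOC2L and NOC3L, which form a complex that moves the precursor towards the nucleoplasm, differed by 1.86 in the knockout fit and by 2.85 in the re-expression fit, with NOC3L at 4.62 and 3.51.

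The nucleolar GTPases lay within 0.54 on the log2 scale in the knockout fit, with 5.88 per kb for GNL2, 6.09 for GNL3 (nucleostemin) and 5.54 for GNL3L. In the re-expression fit the order changed, and GNL3L had 6.01, GNL3 5.46 and GNL2 4.86. MRTO4, which prepares the site of the ribosomal stalk, had 6.10 and 5.89, and NOP2, a methyltransferase of 28S rRNA, 5.84 and 5.50. RRS1, which helps to place 5S rRNA, had 5.57 and 5.13, and BRIX1 5.37 and 3.98. NIP7 had 5.18 and 4.50, the helicase DDX18 5.13 and 4.41 and NOP16 5.02 and 4.90. The paralogs RRP1 and RRP1B had 4.82 and 4.63 in the knockout fit and 4.56 and 4.57 in the re-expression fit.

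Among the other nucleolar proteins, NPM1 and NCL stood far above all other members. NPM1 (nucleophosmin), a chaperone that shapes the granular part of the nucleolus, had an average of 2051 CPM in the knockout fit and 1618 CPM in the re-expression fit. NCL (nucleolin), which binds the precursor RNA, had 2233 and 1431 CPM. On the log2 scale and per kb the values were 10.19 and 9.85 for NPM1 and 9.11 and 8.47 for NCL. These levels placed NPM1 at percentile 99.7 and NCL at percentile 99.0 of all genes in the knockout fit. NPM1 has many processed pseudogenes, and how reads that match several of these copies were counted is not given in the sources used here.

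Of the regulators of RNA polymerase I, UBTF, which opens ribosomal DNA for transcription, had an average log2 CPM of 7.80 in the knockout fit and 7.81 in the re-expression fit. TCOF1 (treacle), which brings polymerase I to the nucleolus, had 7.91 and 7.97. UBTF and WDR12 had the smallest raw differences between the 2 fits of all members, 0.0064 and 0.011 in log2 CPM. Once the median difference of all shared genes was taken off, NOP16 (-7.0e-05) and NOC2L (0.0016) lay closest. The helicase DDX21 had 8.36 and 7.69, MYBBP1A 7.40 and 7.25 and LYAR 6.92 and 5.66.

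**Figure D3:**
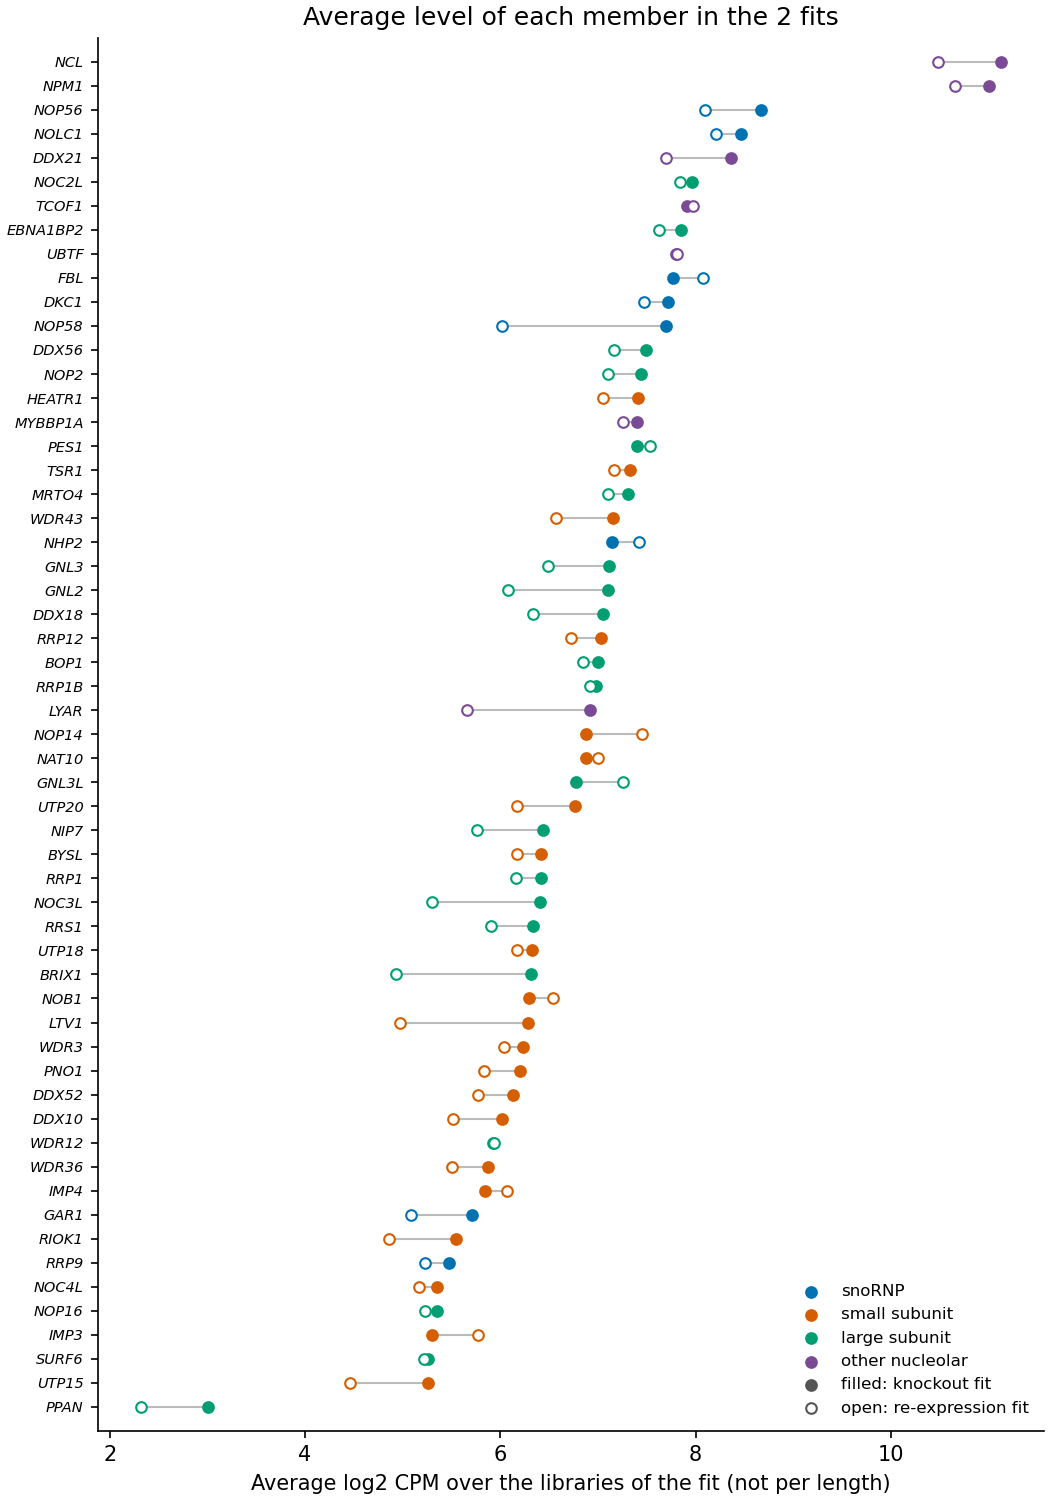
Average log2 CPM (not per length) of each of the 57 members in the knockout fit (filled) and the re-expression fit (open), coloured by class and ordered by the knockout fit. NPM1 and NCL lie highest in both fits, and NOP58, BRIX1, LTV1 and LYAR have the widest gaps, with the re-expression fit lower.

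The libraries of each fit are not listed in the sources used here. From the conditions compared, the fits are taken to rest on different libraries that were normalized separately. Their averages were set side by side without a test. They differ in cells, vectors and libraries at once, which cannot be told apart. Over the 10976 genes in both fits the median difference of the average log2 CPM, re-expression minus knockout fit, was -0.12, and 95% of the genes lay between -1.54 and 0.87. The median difference of the members was -0.26, and 42 of 57 (73.7%) lay below the median of all shared genes. It was -0.25 for the snoRNP class, -0.26 for the large subunit, -0.31 for the small subunit and -0.34 for the other nucleolar proteins. Against the median of all shared genes, 44 members lay farther away than the combined Poisson intervals of both values, 33 of them lower and 11 higher. Of all 10976 shared genes 69.8% lay that far away, 34.9% lower and 34.9% higher, so the total of 44 says little about the members. These intervals leave out the spread between libraries.

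The members with the largest negative differences came from all classes. NOP58 had an average log2 CPM of 7.70 in the knockout fit and 6.02 in the re-expression fit, a difference of -1.68, and was the only member outside the central 95% of all shared genes. BRIX1 followed with 6.32 and 4.93 (-1.39), LTV1 with 6.29 and 4.97 (-1.32), LYAR with 6.92 and 5.66 (-1.27) and NOC3L with 6.41 and 5.30 (-1.11). At the other end were NOP14 with 6.88 and 7.45 (0.56), GNL3L with 6.78 and 7.25 (0.47), IMP3 with 5.30 and 5.77 (0.47), FBL with 7.77 and 8.08 (0.31) and NHP2 with 7.14 and 7.42 (0.28). FBL and NOP58, partners in the box C/D particle, were thus among the members with the highest and the lowest difference.

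The GC content of the transcript moved with these differences. The 5 members with the largest negative difference had transcripts with 37.7% to 43.4% GC, and the 5 at the other end had 51.3% to 59.4%. Across the 57 members Spearman's rho between GC content and the difference was 0.552, and across 10684 shared genes with a transcript it was 0.484. All genes of a fit share the same libraries, and genes are not independent replicates. The 21 members under 45% GC had a median difference of -0.62, against -0.47 for all 4052 shared genes in this range. For the 17 members from 45% to under 55% GC it was -0.15, against 0.038 for 3541 genes. The 19 members with at least 55% GC had a median difference of -0.18, against 0.065 for 3091 genes. The part of GC content in the difference between the fits was not tested.

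**Figure D4:**
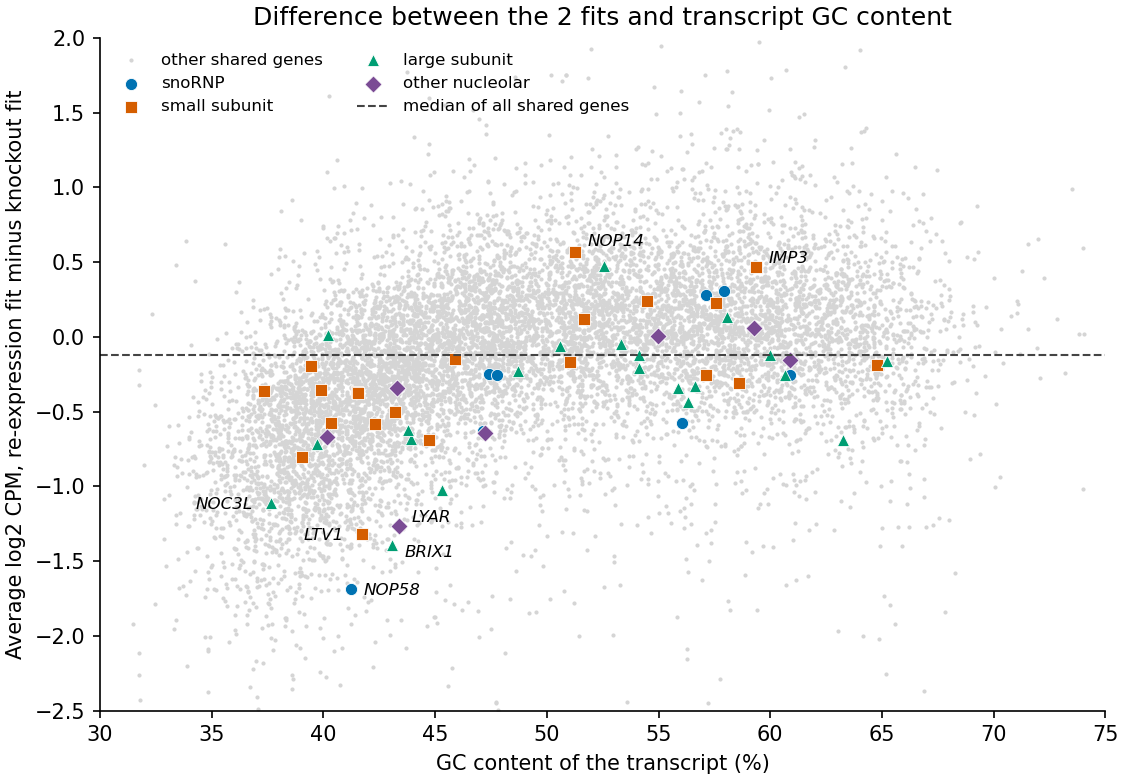
Average log2 CPM of the re-expression fit minus that of the knockout fit against the GC content of the transcript, for the members by class (coloured) and 10627 other shared genes (grey, 43 of them outside the axes), with the median of all shared genes as a dashed line (-0.12). Members with low GC content, such as NOP58 and BRIX1, lie lowest, and NOP14 and GNL3L lie highest.

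A wider list of 97 assembly genes outside the 57 was set beside the members, and all 97 were in the tables. Its median level per kb was 4.45 in the knockout fit and 4.06 in the re-expression fit, below that of the members (5.37 and 4.98). By class the medians in the knockout fit were 4.26 for 13 snoRNP factors, 4.50 for 33 small-subunit factors, 4.45 for 37 large-subunit factors and 4.35 for 14 genes of RNA polymerase I and its factors. The order of the classes among the members was therefore not found in this list, where snoRNP genes had the lowest median of the 4 groups per kb of transcript in the knockout fit. Per kb of coding sequence the polymerase group was lowest in that fit, with 5.07 against 5.39 for snoRNP genes, 5.42 for the small and 5.57 for the large subunit. In the re-expression fit the medians were 3.76 for snoRNP, 4.21 for small-subunit, 4.17 for large-subunit and 3.33 for polymerase genes. In the snoRNP class of this list the helicase RUVBL2 and SNU13 were highest with 7.01 and 6.60 in the knockout fit. The assembly factors NUFIP1 and SHQ1 were lowest with 2.51 and 2.65. Among the others, the highest were EIF6 (8.88) and NOP53 (7.14) of the large subunit, RRP36 (6.63) and UTP4 (6.16) of the small subunit, and POLR1D (5.26) and POLR1C (5.15) of the polymerase group. The lowest were RBM28 (1.72) and MDN1 (2.23), UTP25 (1.95) and KRR1 (1.96), and TAF1A (1.94) and POLR1A (2.86), in the same order of groups. A long annotated transcript lowers a level per kb. Without length, the average log2 CPM of these genes in the knockout fit was 5.67, 6.43, 5.03, 5.30, 2.92 and 6.53, in the same order. The median over all genes was 5.33.

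As points of reference, 83 genes were taken by symbol as those for cytosolic ribosomal proteins, and these include related genes such as RPL7L1. They had a median level per kb of 8.95 in the knockout fit and 9.19 in the re-expression fit, well above the members. The 78 genes for mitochondrial ribosomal proteins had 5.35 and 5.19, against 5.37 and 4.98 for the members. Per kb of coding sequence they stood higher than the members, at 6.64 and 6.36 against 6.04 and 5.73, and without length lower, at 5.84 and 5.64 against 6.88 and 6.34. The median difference between the fits was -0.033 for the cytosolic ribosomal proteins, -0.15 for the mitochondrial ones, -0.26 for the members and -0.30 for the 97 wider assembly genes.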

How the data were processed

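RNA-seq libraries of the 5 conditions were made from total RNA with a NEBNext kit. Per the labels, the authors used bcl2fastq 2.20, STAR 2.5.4 with hg19 and edgeR 3.26.8. The counting of genes, the filter and the number of libraries are not given in the sources used here. The deposited tables also hold log2 fold changes, F statistics, p-values and adjusted p-values of the authors' comparisons, which were not used. Only the deposited average log2 CPM was used, as the authors' value with no error (0 columns could be assigned to a single sample). In the knockout table the header names stand 1 column to the left of their values.

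Lengths, coding lengths and GC content came from GENCODE release 29 (the longest principal coding transcript, matched by NCBI gene ID), with a length for 97.1% of the genes of the knockout fit and 95.9% of the re-expression fit. Promoters came from RefSeq (GRCh38.p14), while the tables hold no coordinates. Depth was taken from the step that best placed the 1100 lowest average CPM values on whole reads, and 96.8% of them in the knockout fit and 68.5% in the re-expression fit lay within 0.1 reads of one. Poisson intervals (95%) cover counting error only.

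A marker gene of the hepatocyte list is not reported here. The members, classes and lists were chosen with earlier results of these data known. Named were all members and, of the wider list, the 2 highest and 2 lowest genes of each class in the knockout fit, and partners in the same complex. Alternatives were coding length, means, class changes, a minimum log2 CPM of 3, and other windows and motifs. Values were computed with pandas 2.3.3 and numpy 2.4.6, intervals with scipy 1.17.1 and plots with matplotlib 3.10.9, all under Python 3.11.15.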

Additional observations from a re-analysis of the deposited data

How the results depend on the processing

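All values are descriptions without a test. The order snoRNP, large subunit, small subunit, all genes held in 12 of 12 alternative settings of the class medians, counted over both fits. Of 61 recomputed values, 26 were labelled as the same as the main value and 35 as moved. The E-box share from the start on (35.4%) was labelled the same, as it lay within the Wilson interval of 34.5% to 61.7%. That window lies inside the main one, so its 17 members are among the 23, and the label does not show agreement. The shares of all genes were 1.75% from the start on and 13.0% in the main window. No error of a class median was available. No paired analysis was possible because no result comes from a test.

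In the knockout fit, coding length gave medians per kb of 7.25 (snoRNP), 6.16 (large subunit), 5.28 (small subunit), 6.74 (other nucleolar) and 4.88 (all genes), and means in place of medians gave 6.51, 5.25, 4.52, 6.85 and 3.77. Without genes with near-identical copies the large subunit had 5.80 and the other nucleolar proteins 5.64. With RRP9 moved to the small subunit, the snoRNP median was 6.67. All genes had 3.80 when those under 3 in average log2 CPM were left out. The shortest principal transcript, a setting added after the data had been seen, gave 6.37 for other nucleolar proteins and 3.88 for all genes.

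In the re-expression fit, coding length gave 6.996 (snoRNP), 5.77 (large subunit), 4.92 (small subunit), 6.46 (other nucleolar) and 4.54 (all genes). Means gave 6.13 for snoRNP factors, 4.25 for the small subunit and 6.42 for other nucleolar proteins. Without genes with near-identical copies the large subunit had 5.13, and without genes under 3 in average log2 CPM it had 5.01 and all genes 3.74. With RRP9 moved, the snoRNP median was 6.24. The shortest principal transcript gave 5.70 for other nucleolar proteins and 3.49 for all genes.

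Without length, the median member had an average log2 CPM of 6.88 in the knockout fit and 6.34 in the re-expression fit. The median difference between the fits was -0.14 once the median of all shared genes was taken off. The share of members with an E-box was 18.8% for the bases before the start and 66.7% when CACGCG was also allowed, which 32.4% of all genes with a promoter entry then held. Depth limits PPAN most, with a half-width of its Poisson interval of 0.37 in the knockout fit.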

Other observations

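Other short motifs, chosen after the E-box had been counted, were searched on both strands of the same promoter windows. The letters CCGGAAG, read by ETS factors, were found in 20 of 48 members (41.7%, 95% Wilson interval 28.8% to 55.7%) and in 24.6% of all genes with a promoter entry. GGGCGG, read by SP and KLF factors, was found in 79.2% of members and 77.9% of all genes, and CCAAT, read by NF-Y, in 43.8% and 44.1%. TATAAA was found in 2 members (4.17%) and in 8.03% of all genes. CAGCTG, an E-box with other central letters, was found in 27.1% of members and 21.9% of all genes.

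Small nucleolar RNA genes, whose products act with the snoRNP factors, were looked up as well. Of these, 13 were in the knockout table and 16 were in both others. The counting of genes and the filter are not given, so these numbers do not tell how strongly such RNAs were expressed.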
